A study of Mus musculus with 6 samples.

Results

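The nuclear factor I (NFI) family of mouse transcription factors comprises Nfia, Nfib, Nfic and Nfix, and all 4 of them were found among the 26852 genes of a deposited expression table of dissected midbrains. The family was chosen by name, with its group means in the deleted and the control embryos in view, so the difference between the genotypes is described here for the 4 genes without a test. RNA was taken from midbrains at E14.5, in mid-gestation, of C57Bl/6 embryos (C57BL/6J in the study's methods). The 3 Lmx1b cKO libraries came from Lmx1b fl/fl;Pitx3-Cre embryos, in which a conditional Lmx1b allele is cut by a Cre driven from the Pitx3 locus, and the 3 control libraries came from Lmx1b wt/wt;Pitx3-Cre embryos. Embryos of both groups therefore carried the Cre and, per the study's methods, 1 Pitx3-Cre allele in place of a wild-type Pitx3 allele. Each library pooled 2 embryos, taken from 4 litters. Deletion is limited to Pitx3-expressing cells, the developing midbrain dopamine (mdDA) neurons, whereas the RNA came from the whole dissected midbrain with all its other neurons, progenitors and glia.

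NFI proteins bind DNA as dimers, on a palindrome made of TTGGC and its reverse complement, and the 4 paralogs can pair with each other. They are best known for the turn from neuron production to glia production in the developing brain and spinal cord, where they act in radial glia and early astrocytes, and Nfia and Nfib also mark neurons that are born late. Lmx1b is a LIM homeodomain protein that mdDA neurons need, and homeodomain proteins of its kind bind AT-rich sites with the core TAATTA. The comparison of the 2 genotypes asks which transcripts of the midbrain differ when Lmx1b has been removed from the Pitx3-expressing cells.

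The deposited table gives only the mean of the 3 libraries of each group, in read counts that had each been divided by the size factor of its library. The whole read counts behind these means were worked back for 26372 genes (98.2%), all 4 NFI genes included, and the libraries so obtained are named replicate a, b or c by falling size factor within a genotype, since nothing links them to sample numbers. Single values below are listed in the order a, b, c. The libraries hold 20782935 to 25240920 reads on these genes, and the NFI genes were covered by between 751 reads (Nfic, cKO replicate c) and 9318 reads (Nfib, control replicate a). Lmx1b itself had normalized read counts of 1257, 1401 and 1455 in the cKO libraries and of 1368, 1352 and 1474 in the controls. The groups overlapped, so the total Lmx1b signal of the midbrain does not check the genotype labels. The dissection carried midbrain transcripts, with En1 between 940 and 1540, while the Hox genes of the hindbrain summed to between 0 and 18.0 normalized read counts per library. Some libraries stood apart in other tissues: bone and mesenchyme transcripts summed to 14731 in cKO replicate c and 2588 in cKO replicate a, against 950 to 1103 in the controls. Among 9 markers of the rhombic lip, Atoh1 (Math1) had 74.3 in control replicate a and at most 2.16 in the others. The sum of the list in control replicate a, 21248, lay inside the range of the other libraries, 15964 to 24592. Atoh1 is too small a part of this sum to show in it, so the sum does not check for rhombic lip tissue. The lowest sums were those of both replicates c, in which Zic1 was at 1892 (cKO) and 1237 (control) against 3625 to 5579 elsewhere, and Zic2 at 333 and 259 against 483 to 997.

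Nfix, a member known for its part in the stem cells of brain and muscle, was the NFI gene with separated groups. Its normalized read counts were 2337, 2459 and 2644 in the cKO libraries. In the control libraries they were 2828, 3059 and 3262. Every cKO library lay below every control library, and the highest cKO value was 0.935 of the lowest control value. The means were 2480 ± 155 and 3049 ± 217 (SD, n = 3), which is 18.7% lower in the cKO, a log2 fold change of -0.30 (SE 0.07) in the limma fit across all genes. With each library left out in turn the value stayed between -0.35 and -0.25, at -0.34 without cKO replicate c, the library with the bone transcripts, at -0.35 without control replicate a, the library with the Atoh1 transcripts, and at -0.25 without control replicate c, the library with the lowest Zic1 and Zic2. Over the whole table, 3.79% of the 16697 genes with a mean of at least 10 had all cKO libraries below all control libraries, and 7.65% had separated groups in either direction. Since the family was picked on this contrast, nothing is read from the 1 of 4 members with separated groups beside these shares. In RNA of a whole midbrain, fewer cells that make a transcript and less transcript per cell cannot be told apart.

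Nfix (ENSMUSG00000001911) lies on the reverse strand of chromosome 8, 84699876 to 84800344 (GRCm38, GENCODE M21), with 8 annotated transcripts and 7351 bases of exon sequence. Of these bases, 141 (1.92%) are also exon of genes on the opposite strand, 4 of them of Lyl1, a bHLH factor of blood cells, and 137 of G430095P16Rik. Whether the counting used the strand is not given in the sources used here. Lyl1 had normalized read counts of 17.8, 25.4 and 23.8 in the cKO libraries and of 29.2, 48.0 and 41.0 in the controls, so its groups did not overlap either, at levels far under those of Nfix. G430095P16Rik was at or near the floor of 3 reads, with 0, 1 and 1 reads in the cKO and 2, 0 and 7 in the controls.

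RefSeq start sites (GRCm38.p6) give 6 windows of 250 bases before a start for 3 of the 4 members, of which 4 belong to Nfix, 1 to Nfia and 1 to Nfic. They were searched on both strands for TAATTA, the homeodomain core, for TTGGC, 1 arm of the NFI site, and for the full NFI palindrome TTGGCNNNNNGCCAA. The core TAATTA was in 1590 of 32851 mouse windows (4.84%) and, among the members, in 1 window of Nfix, where it starts 40 bases before the start site. That window, chr8:84780083-84780332 on the reverse strand, lies inside the Nfix gene and outside its annotated exons. It is printed beside the window of Nfic, chr10:81427174-81427423 on the reverse strand, as the pair of members that differed most in how the genotypes compared, with TAATTA in capitals.
Nfix: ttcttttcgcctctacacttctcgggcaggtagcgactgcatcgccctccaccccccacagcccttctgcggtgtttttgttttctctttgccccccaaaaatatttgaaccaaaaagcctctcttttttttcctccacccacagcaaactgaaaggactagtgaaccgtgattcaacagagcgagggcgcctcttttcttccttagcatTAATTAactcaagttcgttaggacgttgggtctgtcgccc
Nfic: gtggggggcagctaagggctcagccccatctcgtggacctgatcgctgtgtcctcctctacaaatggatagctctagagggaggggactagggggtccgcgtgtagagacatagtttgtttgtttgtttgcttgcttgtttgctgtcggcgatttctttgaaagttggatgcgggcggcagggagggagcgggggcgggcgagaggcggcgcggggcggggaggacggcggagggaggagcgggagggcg
The Nfic window holds none of the 3 motifs, and 14 bases of the Nfic window are annotated exon. The arm TTGGC, found in 41.5% of all windows, occurred in 2 other windows of Nfix, and the palindrome, found in 12 windows (0.0365%), in none of the members' windows. The window of Nfia, chr4:97581693-97581942, also without a match, lies before the GENCODE span of Nfia given below and inside that of E130114P18Rik. These matches describe letters in a window only, and nothing in the data bears on whether a protein sits there.

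Nfia, the member known for starting the production of glia, was lower on average without separated groups. Its normalized read counts were 1783, 2152 and 2418 in the cKO libraries. In the control libraries they were 2589, 2136 and 2441. The 2 replicates a set the ends of the range, with the lowest value in cKO replicate a and the highest in control replicate a, and the other 4 libraries, of both genotypes, lay between 2136 and 2441. The means were 2118 ± 319 and 2389 ± 231 (SD, n = 3), a log2 fold change of -0.19 (SE 0.10), and 7 of the 9 pairs of a cKO and a control library had the cKO below. Leaving out cKO replicate a left a log2 fold change of -0.06, leaving out control replicate a left -0.12, and leaving out cKO replicate c took it to -0.29. Nfia (ENSMUSG00000028565) lies on chromosome 4, 97772734 to 98118874, on the forward strand, with 8 transcripts and 10891 bases of exon sequence, of which 4 (0.0367%) are shared with E130114P18Rik on the opposite strand. That neighbour had normalized read counts of 199, 191 and 248 in the cKO and 318, 222 and 216 in the controls, again with control replicate a at the top.

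Nfib, the paralog with the highest level here and known in lung and cortex for the maturation of progenitors, followed the same order of libraries within each group as Nfia. Its normalized read counts were 6496, 7166 and 7582 in the cKO libraries. In the control libraries they were 8244, 6853 and 7646. The groups overlapped, with the cKO below in 7 of 9 pairs, and again cKO replicate a was lowest and control replicate a highest. The means were 7081 ± 548 and 7581 ± 698 (SD, n = 3), a log2 fold change of -0.10 (SE 0.07), which became -0.04 without either replicate a and -0.17 without control replicate b. Nfib (ENSMUSG00000008575) lies on the reverse strand of chromosome 4, 82290173 to 82705750, with 12 transcripts and 14957 bases of exon sequence, none of it shared with another gene.

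Nfic, a member known from the growth of tooth roots, had nearly equal means in the genotypes. Its normalized read counts were 772, 895 and 813 in the cKO libraries. In the control libraries they were 784, 837 and 855. The values of the genotypes were interleaved, with the cKO below in 5 of 9 pairs. The means were 827 ± 62.6 and 825 ± 37.1 (SD, n = 3), a log2 fold change of 0.00 (SE 0.09), between -0.06 and 0.05 with each library left out. Nfic (ENSMUSG00000055053) lies on the reverse strand of chromosome 10, 81396186 to 81455635, with 7 transcripts and 6630 bases of exon sequence, 72 of them (1.09%) shared with the antisense transcript Gm16104, which had at most 3 reads in any library.

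**Figure D1:**
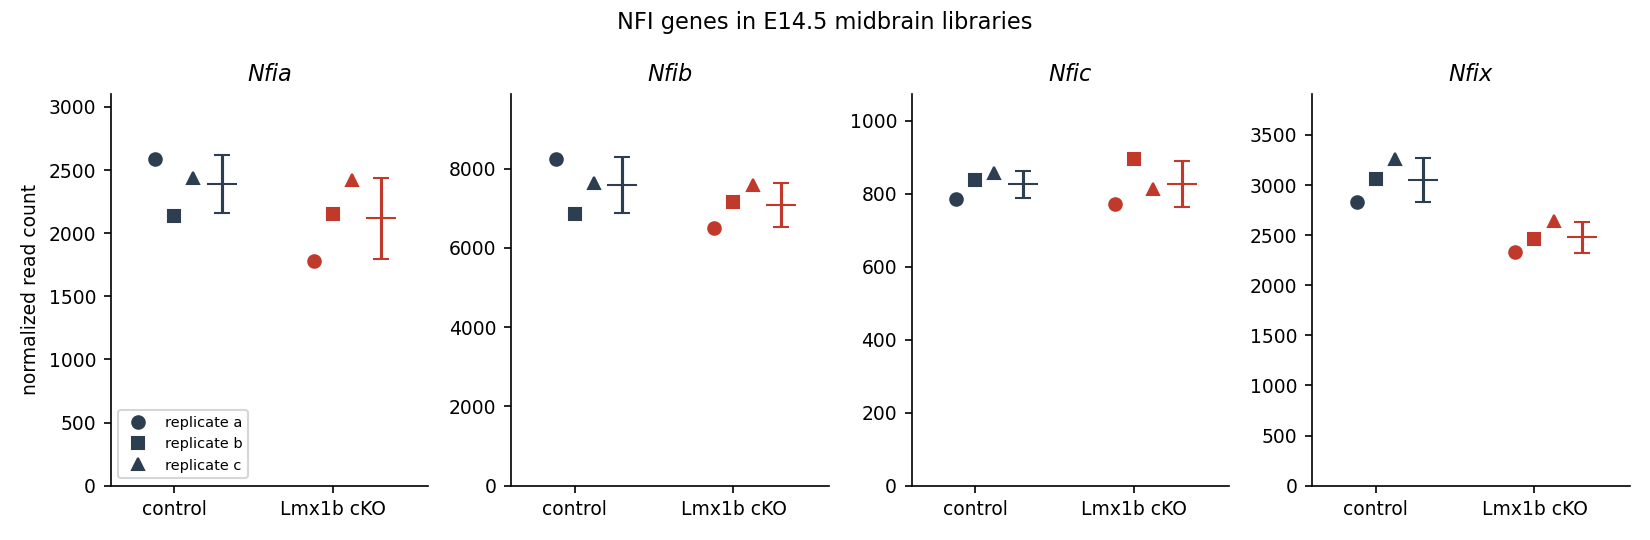
Normalized read count (vertical axis, from 0, with its own scale per panel) of the 4 NFI genes in the control and Lmx1b cKO libraries. Circles, squares and triangles are replicates a, b and c, and the bars beside them give the mean ± SD (n = 3). The cKO libraries of Nfix, 2337 to 2644, all sit below its controls, 2828 to 3262, whereas the groups of the other 3 genes overlap.

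**Figure D2:**
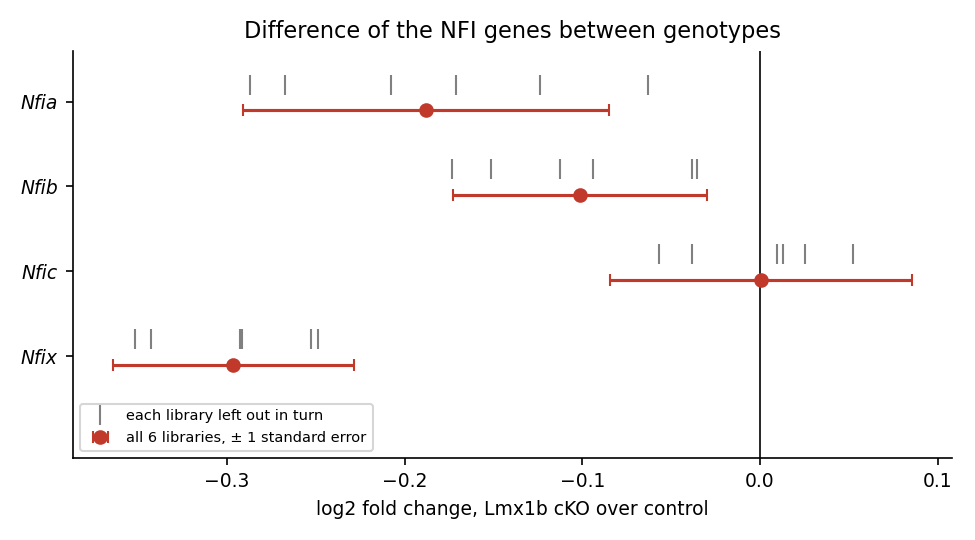
Log2 fold change of the Lmx1b cKO over control (horizontal axis) for each NFI gene. Red points with bars give the value ± 1 SE from all 6 libraries, and grey ticks give the value with each library left out in turn. The ticks of Nfix run from -0.35 to -0.25 and those of Nfia from -0.29 to -0.06, while those of Nfic lie on both sides of 0.

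Levels of the 4 genes were compared per length, as the normalized read count per kilobase of exon sequence. Nfib was highest with 490 ± 41.8 (SD over 6 libraries), followed by Nfix with 376 ± 48.2, Nfia with 207 ± 26.6 and Nfic with 125 ± 6.94. This order held inside each of the 6 libraries and also with the longest transcript as the length. Over all libraries the ranges of Nfib, 434 to 551, and Nfix, 318 to 444, overlapped, although Nfib exceeded Nfix inside each library, by up to 1.43 times. With the longest transcript as the length, the level of Nfib was 804 and its range, 713 to 904, did not overlap that of Nfix, 427 to 596. The ranges of Nfia, 164 to 238, and Nfic, 116 to 135, touched neither each other nor those above. Nfib lay above 80.0% of the 16629 genes ranked by this level, Nfix above 73.3%, Nfia above 57.2% and Nfic above 45.6%.

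Summed per length, the family had levels of 1032, 1146 and 1211 in the cKO libraries and of 1292, 1197 and 1308 in the controls. The sums overlapped between cKO replicate c and control replicate b. Their means were 1130 ± 90.6 and 1265 ± 60.2 (SD, n = 3), 10.7% lower in the cKO. Within this sum Nfib made up 41.9% ± 0.143 in the cKO and 40.0% ± 2.33 in the controls. Nfix made up 29.9% ± 0.822 and 32.8% ± 2.67, Nfia 17.1% ± 1.24 and 17.3% ± 1.02, and Nfic 11.1% ± 0.849 and 9.85% ± 0.697. Of the 6 ratios between members, the ratio of Nfic to Nfix was the one that did not overlap between the genotypes, with 0.366, 0.404 and 0.341 in the cKO and 0.307, 0.303 and 0.291 in the controls. The other 5 ratios overlapped between the genotypes, those among Nfia, Nfib and Nfix included.

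**Figure D3:**
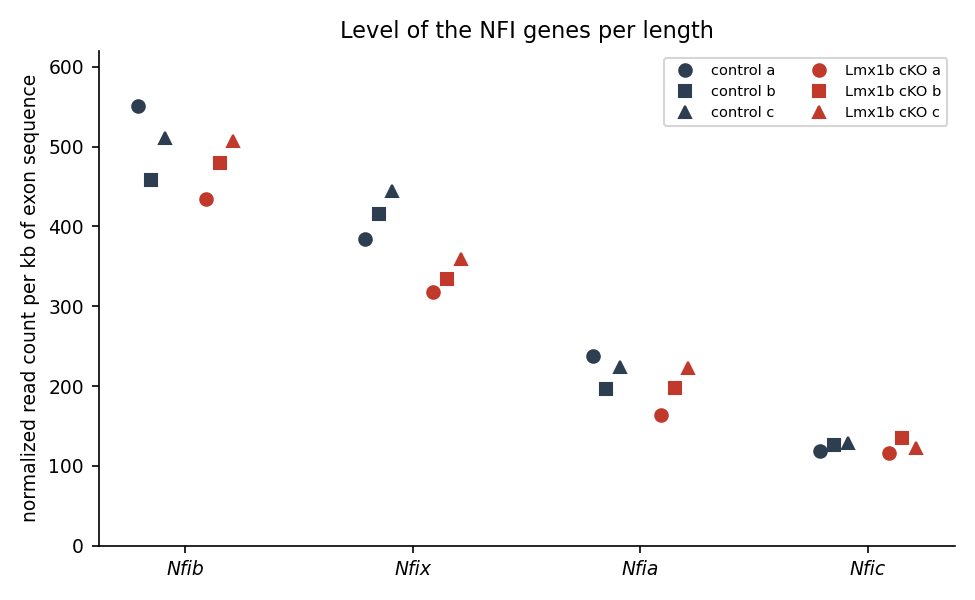
Normalized read count per kilobase of exon sequence (vertical axis, from 0) of the NFI genes in each library, ordered by level. Dark symbols are controls and red symbols Lmx1b cKO, with circles, squares and triangles for replicates a, b and c. Nfib leads in every library and Nfic is lowest, at 116 to 135.

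Nfia and Nfib moved together among the 6 libraries, with a Pearson correlation of log2 values of 0.96, and of 0.95 once each library was expressed as its deviation from its group mean. The other 5 pairs of members were less alike, from 0.01 for Nfib and Nfic to 0.61 for Nfia and Nfix, and from 0.01 to 0.52 as deviations. These are descriptions over 6 libraries that share their normalization. Summed markers of cycling progenitors (Mki67, Top2a, Pcna and others) were 5615, 7245 and 6889 in the cKO and 8711, 5404 and 6357 in the controls. Control replicate a was thus highest for Nfia, Nfib and the cycling markers alike, while in Nfix it was the lowest of the controls. Their part in the levels of Nfia and Nfib was not tested.

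Among 12464 genes with a mean of at least 100, the genes whose log2 values were most like those of each member over the 6 libraries were found by the Pearson correlation. For Nfix these were Lrig1 (0.996), a membrane protein that restrains growth factor receptors, En1 (0.986), the homeodomain factor of midbrain and mdDA neurons, and Tacc1 (0.983), a protein of the centrosome. Lrig1 had 1647, 1713 and 1876 in the cKO and 2086, 2209 and 2397 in the controls. En1 had 940, 1058 and 1147 against 1277, 1326 and 1540. Tacc1 had 2141, 2231 and 2362 against 2395, 2469 and 2563. All 3 genes shared with Nfix the separation of the genotypes and the order of the libraries. They were picked by correlation over these same 6 libraries, which favours both traits, so nothing is read from them. Within each genotype the values rose from a to c, which is also the order of falling size factor by which the replicates were named. For Nfia the genes were Gas2l3 (0.990), Cpsf4 (0.988), a factor of RNA 3′ end processing, and Lancl3 (0.984), and for Nfib they were Rpe (0.991), an enzyme of the pentose phosphate pathway, Atad2 (0.985), a chromatin ATPase, and Chrna5 (0.985), a nicotinic receptor subunit. For Nfic they were Mrpl58 (0.993), a factor of mitochondrial translation, Spag4 (0.985) and Thap7 (0.982). With 6 libraries high correlations were frequent, as 186, 202, 114 and 83 genes exceeded 0.9 with Nfia, Nfib, Nfic and Nfix.

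Genes described as targets or partners of NFI factors in the developing brain were then read from the limma fit over all 16697 genes, in which 2.80% had an unadjusted p-value under 0.05, 1.61% lower and 1.19% higher in the cKO, and 0% an adjusted one (Benjamini-Hochberg). Of the 16 genes, 13 were tested and 1 fell, Slc1a3 (Glast), the glutamate transporter of radial glia. Slc1a3 had 3972, 4093 and 4615 in the cKO and 5171, 4404 and 5103 in the controls, a log2 fold change of -0.21 (SE 0.07, limma adjusted p = 1.00). Its groups overlapped, and the unadjusted p-value was no longer under 0.05 without cKO replicate a, without control replicate c or without control replicate a. The list as a whole had 0 to 4 calls with a library left out, 4 of them without cKO replicate c. The median log2 fold change of the 13 genes was -0.11, against 0.00 for all genes tested, and 10 of them were below 0. Sox9, a regulator of glial fate that acts with Nfia, had 1363 ± 199 and 1464 ± 68.7 (SD, n = 3), and Hes1, a Notch effector, had 220 ± 43.8 and 262 ± 79.0. Neither passed the test. The 3 other tested genes of the list with the highest counts were the adhesion genes Cdh2 and Cntn2 and the ephrin receptor Ephb1, with log2 fold changes of 0.02 (SE 0.05), 0.05 (SE 0.09) and -0.01 (SE 0.05), and none of them passed. Of the genes not tested, Gfap, the intermediate filament of mature astrocytes, had a mean under 10, as did Gabra6, a receptor subunit of cerebellar granule cells. Fabp7, the fatty acid binding protein of radial glia, was too abundant for the counts to be worked back, with authors' means of 12594 in the cKO and 13725 in the controls.

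In the developing nervous system young neurons express transcription factors in a temporal order, with Onecut factors early, Pou2f2 and Zfhx factors in between, and Nfia, Nfib, Neurod2 and Neurod6 late. Of these other factors 6 of 8 were tested, and 1 rose in the cKO, Pou2f2, beside 1.19% of all genes tested. It had 4661, 4775 and 4132 in the cKO and 3753, 4292 and 4215 in the controls, a log2 fold change of 0.15 (SE 0.07, limma adjusted p = 1.00), and the groups overlapped. The call was lost in 4 of 6 fits with a library left out, and the log2 fold change was 0.09 without control replicate a. With all 6 libraries it was also lost under limma-trend and at a minimum mean of 100. The late factor Neurod2 had 255, 352 and 316 in the cKO and 548, 309 and 314 in the controls, so that control replicate a was highest, as it was for Nfia and Nfib. Neurod6 had means of 639 ± 65.2 and 630 ± 141, and the early factor Onecut2 of 2899 ± 159 and 2822 ± 60.0 (SD, n = 3). Onecut1 and Onecut3 had log2 fold changes of 0.06 (SE 0.18) and -0.04 (SE 0.10). Zfhx3 and Zfhx4 were too abundant to be worked back, with authors' means of 11410 and 10032 in the cKO and 10089 and 9538 in the controls. The median log2 fold change of the 6 genes was 0.03, and 2 of them were below 0. Their summed normalized read counts, of which Pou2f2 and Onecut2 made up most, were 9107 to 9643 in the cKO and 8977 to 9034 in the controls, without overlap. None of the 6 genes had separated groups by itself, and no share over all genes exists for such a sum, so nothing is read from this gap.

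Markers of radial glia and early astrocytes, the cells in which NFI factors are best known, were lower for some genes. Of 21 markers 16 were tested, of which 5 fell and 1 rose, beside 1.61% and 1.19% of all genes. Bcan, a brain proteoglycan, had 1424, 1405 and 1678 in the cKO and 1745, 1912 and 1783 in the controls, a log2 fold change of -0.28 (SE 0.08). Its groups did not overlap. Aldh1l1, the folate enzyme used as an astrocyte marker, had 2263, 2430 and 2651 against 2822, 2836 and 2849, a log2 fold change of -0.22 (SE 0.06), also with separated groups. Tnc, an extracellular matrix protein of radial glia, fell by 0.27 on the log2 scale (SE 0.08) with overlapping groups. The calls of Bcan, Aldh1l1 and Tnc held in all 6 fits with a library left out. Slc1a3 is given above, since 5 of the 21 markers (Slc1a3, Fabp7, Gfap, Sox9 and Hes1) are also NFI-linked genes, and Hes5, a Notch effector of progenitors, had a log2 fold change of -0.33 (SE 0.13) and kept its call in 2 of these 6 fits. Slc1a2 (Glt1), a second glutamate transporter of astrocytes, rose by 0.10 on the log2 scale (SE 0.04), with its call kept in 1 of the 6. Its groups were separated too, with 9298, 9411 and 9376 in the cKO above 8588, 9158 and 8550 in the controls. The adjusted p-value (limma, Benjamini-Hochberg) was 1.00 for each of the called markers. The median log2 fold change over the 16 markers was -0.12, with 12 of them below 0. Uncalled markers included Sox2 (0.01, SE 0.08), Nes (-0.04, SE 0.07), Gja1 (0.05, SE 0.14) and Id4 (0.12, SE 0.07). The summed markers ranged from 50948 to 55198 in the cKO and from 54666 to 56480 in the controls. Fabp7, Vim and Ptprz1, too abundant to be worked back, were left out of these sums. The number called went from 6 to 3 without cKO replicate a, without control replicate a or without control replicate c. The part of these cells in the level of Nfix was not tested.

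**Figure D4:**
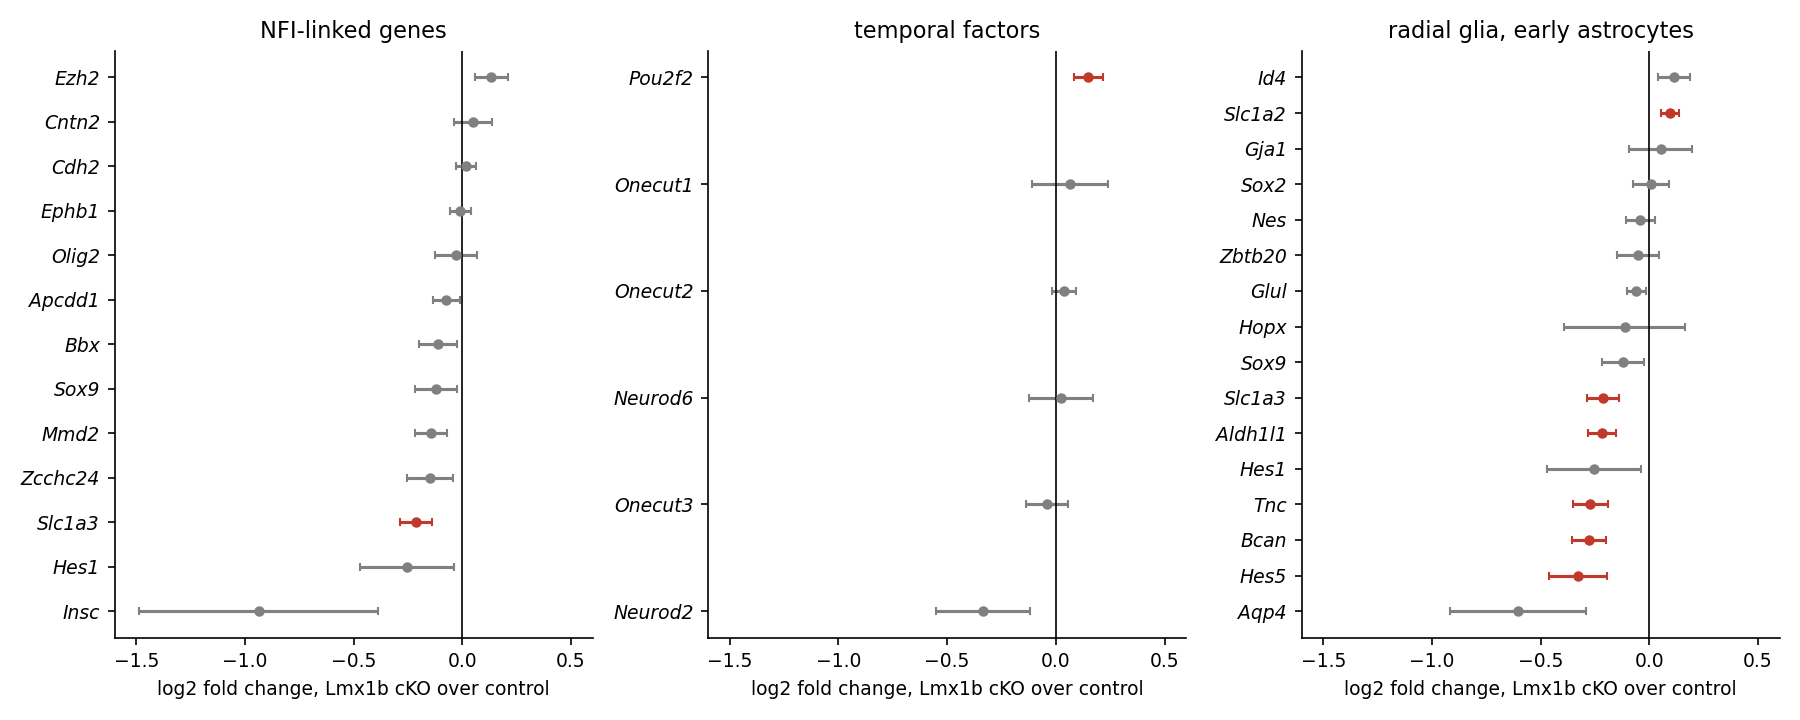
Log2 fold change of the Lmx1b cKO over control (horizontal axis, bars ± 1 SE from the limma fit, n = 3 per group) for the tested genes of 3 lists: NFI-linked genes, temporal transcription factors, and markers of radial glia and early astrocytes. Red points have an unadjusted p-value under 0.05. The red points are Slc1a3 in the first panel, Pou2f2 in the second, and Bcan, Tnc, Aldh1l1, Slc1a3, Hes5 and Slc1a2 in the third.

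Other cell types in the dissection were read in the same way, and none of the following calls passed adjustment in the limma fit. Beside 1.61% of all genes called lower and 1.19% called higher, 4 of 11 markers of mdDA neurons fell, the homeodomain factors En1 (-0.40, SE 0.09), En2 (-0.46, SE 0.10) and Pitx3 (-0.41, SE 0.18) and the dopamine synthesis enzyme Ddc (-0.24, SE 0.10), with a median log2 fold change of -0.24. The calls of En1 and En2 held with each library left out, while those of Ddc and Pitx3 held in 2 of 6 such fits each. Ddc went to -0.11 without control replicate c, and Pitx3 to -0.24 without cKO replicate a. Of the 11 log2 fold changes 10 were below 0, and that of Slc18a2 was above 0 (0.13, SE 0.16). The summed mdDA markers, with En1 and En2 among them, did not overlap. They were 12686, 13237 and 13771 in the cKO and 14201, 14604 and 16318 in the controls. No sum was taken without En1 and En2, so the gap is not read as one of the markers as a whole. The part of these markers in the level of Nfix was not tested. None of 10 cycling, 3 young neuron, 9 rhombic lip, 5 oligodendrocyte precursor, 7 endothelial and pericyte, 5 microglia and 2 choroid plexus markers tested was called at an unadjusted p-value under 0.05. No Hox gene reached the minimum mean. Of 6 blood markers the globins Hba-a1 (0.26, SE 0.11) and Hbb-bs (0.30, SE 0.12) rose, and of 11 bone and mesenchyme markers Col3a1 did (1.84, SE 0.77), each called in 3 of the 6 fits with a library left out.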

How the data were processed

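RNA of E14.5 midbrains was sequenced as 3 Lmx1b cKO and 3 control libraries. Per the submitters' processing notes, the tools were TopHat 1.0.14, Bowtie2 2.1.0, HTSeq 0.6.1p1 and DESeq 1.10.1, on GRCm38.p4, and strand use in counting is not given in the sources used here. The deposited coverage columns hold a normalized signal, the mean over all libraries or 1 group of read counts that the authors divided by size factors. The authors' ratios, fold changes and p-values were not used. Lines naming no gene (3, with 31.8% of the signal) were left out.

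The size factors were read from the steps between the means of lowly expressed genes, and the 3 whole counts behind each mean up to 10000 were searched. All 26379 cKO and 26387 control means searched had a single answer, and 3 and 5 of 1000 decoy values also had one. For decoys with means of 2000 to 8000, where Nfia, Nfib and Nfix lie, 6 and 5 of 300 had an answer. The genes recovered in both groups hold 70.0% of the gene signal. Size factors recomputed from the counts differed by at most 0.131%. Counts of the 16697 genes that averaged at least 10 normalized reads were fitted with limma 3.58.1 (voom weights, genotype as the term) in R 4.3.3, with Benjamini-Hochberg adjustment, and the procedure was tested on simulated data. Calls are at an unadjusted p-value under 0.05 unless stated. Correlations used log2(normalized count + 1). Positions and lengths are from GENCODE M21 (26693 genes matched) and promoter windows from RefSeq. Python 3.11.15 was used for all else.

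The members and gene lists were chosen with earlier results of these data known. Named are the members, genes sharing exons with them, the 3 genes most correlated with each member, list genes with an unadjusted p-value under 0.05 (at most 5 per marker list), and the 4 most abundant tested genes of the NFI-linked and temporal lists. Also named are Lmx1b as the deleted gene, Mki67, Top2a and Pcna as examples of the cycling list, and Vim and Ptprz1 as markers too abundant to be worked back. Slc1a2, Sox9, Hes1, Gfap, Gabra6, Fabp7, Atoh1, Zic1, Zic2, Zfhx3, Zfhx4, Onecut1, Neurod2, Sox2, Nes, Gja1, Id4 and Slc18a2 were added after their values were seen.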

Additional observations from a re-analysis of the deposited data

How the results depend on the processing

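The log2 fold changes of the 4 NFI genes stayed within the spread between libraries under limma-trend, recomputed size factors, scaling by totals and the ratio of deposited means. With each library left out they ranged from -0.29 to -0.06 (Nfia), -0.17 to -0.04 (Nfib), -0.06 to 0.05 (Nfic) and -0.35 to -0.25 (Nfix). The levels per length with the longest transcript were 237 (Nfia), 804 (Nfib), 132 (Nfic) and 505 (Nfix), since that length is shorter than the joined exons. The 467 genes with an unadjusted p-value under 0.05 became 303 at a minimum mean of 100, 970 with no minimum, 67 at a threshold of 0.01 and 338 to 637 with a library left out. Genes with an adjusted p-value under 0.05 numbered 0, and 0 to 3 with a library left out, the 3 without control replicate a. The NFI-linked list had 1 call, and 0 to 4 with a library left out, with 4 when cKO replicate c was left out, 2 when it was control replicate a or cKO replicate b, and 0 without cKO replicate a or control replicate c. The temporal list had 1 call, 0 under limma-trend, 0 at a minimum mean of 100, and 0 to 1 with a library left out, with 0 without cKO replicate a or b or control replicate a or c. Leaving out a library, also tried on 2 more lists after the data were seen, gave 3 to 7 radial glia calls against 6 and 2 to 5 mdDA calls against 4, with 2 without cKO replicate a or control replicate c. The cause of these changes was not tested. No paired analysis was possible because the recovered libraries cannot be linked to the numbers N1, N2 and N3, which the deposited column headers use in both groups, and whether a shared number marks a shared litter is not stated in the sources used here. With 3 libraries per group and a median SE of 0.11 over all genes tested (0.06 for those with a mean of at least 1000), differences near these errors are not resolved.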
